A study of Drosophila melanogaster with 2 samples.

Results

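The genes described here are 10 genes of DNA replication and the cell cycle in Drosophila melanogaster, chosen by name because many of them are known users of housekeeping promoters. They are Orc1, Mcm2, Mcm5, Mcm7, PCNA, CycA, CycB, CycE, E2f1 and stg, 10 of the 13968 protein-coding genes on the 7 chromosome arms, and they have 20 annotated transcription start sites (TSSs) between them. The data are ChIP-seq peak lists for Aristaless, the homeodomain protein encoded by al, in whole embryos of 0 to 24 h. The flies were a transgenic al-GFP strain that makes an al-eGFP fusion protein from an insertion, and the protein was precipitated with an antibody to GFP from chromatin sonicated to 200 to 800 bp. There was 1 group of 2 biological replicates and no contrast between groups, and the libraries that the labels give as possible controls were not analysed here. Signal of the tagged protein and signal that any precipitate of open promoters gives cannot be told apart without such a control. A whole embryo is a mixture of tissues and stages, so binding in few cells and weak binding in many cells cannot be told apart either.

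Before S phase the origin recognition complex, of which Orc1 is a subunit, and its partners load the MCM helicase, whose ring includes Mcm2, Mcm5 and Mcm7, and PCNA is the sliding clamp that holds the polymerases on DNA. CycE with its kinase starts S phase, CycA and CycB act in G2 and mitosis, and string (stg) is the Cdc25 phosphatase that releases the mitotic kinase and paces embryonic divisions. E2f1 with its partner Dp turns on many of the S phase genes through E2F sites. Promoters of such genes in flies often carry the DNA replication-related element (DRE), which binds DREF and overlaps the CGATA site of the insulator protein BEAF-32, or Motif 1, bound by M1BP. Aristaless is known from the leg tip, antenna and wing, whose development it patterns, and proteins of its class bind sites built on TAATTA.

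In the thresholded list of the series, which draws on both replicates, a peak summit lay within 500 bp of an own TSS of 3 of the 10 genes, Mcm2, Mcm5 and CycE. A further 3, PCNA, CycB and E2f1, had a summit in the gene body or up to 2 kb from it. Mcm7, Orc1, CycA and stg had none in any of the 4 thresholded lists (the series' list, its conservative version and 1 list per replicate). CycB had by far the highest signal of the 10 genes, 396 on the authors' own scale, but beyond its 3′ end and not at its promoter.

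The DNA that carries these results is shown for some of the peaks and for a pair of promoters that had motifs and no peak. Sequences are from the RefSeq release 6 assembly, 5′ to 3′ on the strand of the named gene, with motif matches in capitals. The capitals mark the BEAF-32 site CGATA, on either strand, at Mcm2, that site and the DRE core ATCGAT at Mcm5, CGATA at the CycE peak and the E2F spelling TTTGGCGC at the CycE promoter. In the CycA promoter they mark the DRE TATCGATA and a further CGATA, and in the Mcm7 promoter the homeodomain core TAATTA and a CGATA. The E2f1 peak is shown without capitals because none of the 14 motifs searched matched within 100 bp of its summit.
Mcm2, 250 bases upstream of the TSS (chr3R:8264720-8264969, + strand), which hold the peak: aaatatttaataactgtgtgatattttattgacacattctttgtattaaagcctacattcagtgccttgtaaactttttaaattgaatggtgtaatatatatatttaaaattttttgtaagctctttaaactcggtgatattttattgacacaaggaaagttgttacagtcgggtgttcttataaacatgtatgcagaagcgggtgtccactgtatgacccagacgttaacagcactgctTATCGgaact
Mcm5, the 297 bases between its TSS and that of Art1 (chr3R:10788227-10788523, + strand): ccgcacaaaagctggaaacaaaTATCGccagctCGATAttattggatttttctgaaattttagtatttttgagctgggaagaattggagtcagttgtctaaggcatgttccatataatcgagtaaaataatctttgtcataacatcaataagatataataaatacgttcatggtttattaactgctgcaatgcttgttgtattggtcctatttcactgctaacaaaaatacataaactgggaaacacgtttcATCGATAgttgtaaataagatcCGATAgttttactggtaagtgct
CycE, 100 bases either side of the summit (chr2L:15746984-15747184, - strand): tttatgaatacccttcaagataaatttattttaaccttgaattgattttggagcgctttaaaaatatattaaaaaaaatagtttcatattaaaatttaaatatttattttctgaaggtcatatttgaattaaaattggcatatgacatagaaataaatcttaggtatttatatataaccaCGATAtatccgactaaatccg
CycE, 250 bases upstream of the TSS nearest to that summit (chr2L:15746611-15746860, - strand): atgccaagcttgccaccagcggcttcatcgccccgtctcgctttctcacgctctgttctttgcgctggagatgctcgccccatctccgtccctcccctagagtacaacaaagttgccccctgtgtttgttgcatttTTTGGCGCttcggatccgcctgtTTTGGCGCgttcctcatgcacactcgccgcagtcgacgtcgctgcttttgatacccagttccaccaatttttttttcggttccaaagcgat
E2f1, 100 bases either side of the strongest summit (chr3R:21627882-21628082, - strand): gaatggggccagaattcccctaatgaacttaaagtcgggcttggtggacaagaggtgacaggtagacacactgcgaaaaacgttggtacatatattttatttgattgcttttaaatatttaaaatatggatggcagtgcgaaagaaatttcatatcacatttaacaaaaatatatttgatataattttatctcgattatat
CycA, 250 bases upstream of the TSS, no peak (chr3L:11833579-11833828, - strand): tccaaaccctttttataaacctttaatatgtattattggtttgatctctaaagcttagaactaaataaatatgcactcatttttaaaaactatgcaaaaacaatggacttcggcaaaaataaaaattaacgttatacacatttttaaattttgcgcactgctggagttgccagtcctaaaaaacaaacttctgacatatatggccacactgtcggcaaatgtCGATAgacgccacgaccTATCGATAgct
Mcm7, 250 bases upstream of the TSS, no peak (chr3L:8891346-8891595, + strand): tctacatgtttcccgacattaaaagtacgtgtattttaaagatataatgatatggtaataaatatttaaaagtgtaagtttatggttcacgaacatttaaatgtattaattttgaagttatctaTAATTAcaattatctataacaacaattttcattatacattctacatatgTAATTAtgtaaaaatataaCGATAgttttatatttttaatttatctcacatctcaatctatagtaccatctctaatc

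Values below are the authors' signal per peak, on a scale that the sources used here do not give, so a signal is read within its own list. Over 3588 series peaks with an entry in both replicates, the series signal was a median of 0.998 times the sum of the 2 replicates' signals (10th to 90th percentile 0.942 to 1.04). A series value is therefore not an average of the replicates. The lists held 3848 peaks with a median signal of 90.0 in the series, 3493 with 97.3 in the conservative list, 2987 with 67.4 in replicate 1 and 2114 with 56.9 in replicate 2. Ranks count from the strongest peak. Every thresholded peak had a global irreproducible discovery rate (IDR, an estimate of how often such a peak fails to repeat between inputs) of at most 0.01, while 950 series peaks (24.7%) had a q value of their own above 0.05. No read counts are in these lists, so depth is unknown.

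Among the helicase genes, Mcm2 (chr3R:8264970-8267924, + strand) had the best supported promoter peak. The peak spans chr3R:8264819-8264958, in the intergenic stretch upstream of the gene, with its summit 77 bp upstream of the TSS. Its signal was 179 in the series list, 104 in replicate 1 and 74.6 in replicate 2, and it was in all 4 thresholded lists. It ranked 740 of 3848 in the series, 791 of 2987 in replicate 1 and 683 of 2114 in replicate 2, so both replicates placed it in the upper part of their lists. The replicates' summits lay 78 and 57 bp upstream of the TSS. The gene RPA1, which encodes the large subunit of the single-strand binding protein of the replication fork, starts 519 bp away on the opposite strand, and the summit is 442 bp from its TSS. The same peak is thus counted for both genes.

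Mcm5 (chr3R:10788524-10791150, + strand) shares a 298 bp head-to-head promoter with Art1, an arginine methyltransferase gene. The series list placed a pair of summits there, 271 bp upstream of Mcm5 with a signal of 68.0 (rank 2651 of 3848) and 70 bp upstream with a signal of 15.6 (rank 3758). The stronger summit lay 27 bp from the TSS of Art1, so by distance it belongs to Art1 rather than Mcm5. The weaker entry had a q value of 0.939. Both entries were also in the conservative list, but neither replicate's thresholded list held a peak at this promoter. The ranked lists, which keep entries that fail the threshold, gave 37.7 in replicate 1 (IDR 0.0131) and 36.5 in replicate 2 (IDR 0.337). The replicates' signals were thus close to each other, and neither entry passed the IDR threshold.

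Mcm7 (chr3L:8891596-8894310, + strand) had no peak within 2 kb in any thresholded list. Its strongest ranked entry within 500 bp of the TSS had a signal of 10.4 in the series, at an IDR of 0.903. The nearest thresholded summit was 29294 bp from its TSS, in an intron of Tsp66E, with a signal of 116. The 3 helicase genes therefore ranged from a peak in every list to none in any.

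Orc1 (chr2R:7522437-7525716, - strand) had no peak either. Its strongest ranked entry at the TSS had a signal of 23.3 in the series, 18.5 in replicate 1 and 22.4 in replicate 2, with IDRs of 0.323, 0.706 and 0.518. The nearest thresholded summit, with a signal of 163 in the series, was 3899 bp upstream in an intron of Drat.

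PCNA (chr2R:20261754-20262883, - strand) had a thresholded peak only near its upstream neighbours. The peak spans chr2R:20263785-20264114, and its summit was 1067 bp upstream of the PCNA TSS but 29 bp from a TSS of RpS18 and 266 bp from one of plu. RpS18 encodes a ribosomal protein and plu (plutonium) a regulator of the early embryonic cycles. The signal was 63.4 in the series and 45.9 in replicate 1, where it was listed. In replicate 2 the same place had a ranked entry of 16.8 with an IDR of 0.856, and the conservative list did not hold the peak. The log2 ratio of replicate 1 to replicate 2 was 1.45 here, above the 90th percentile of all series peaks (1.26). Within 500 bp of a PCNA TSS the strongest entry was a ranked one of 29.3 in the series and 23.3 in replicate 1, with none in replicate 2.

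**Figure D1:**
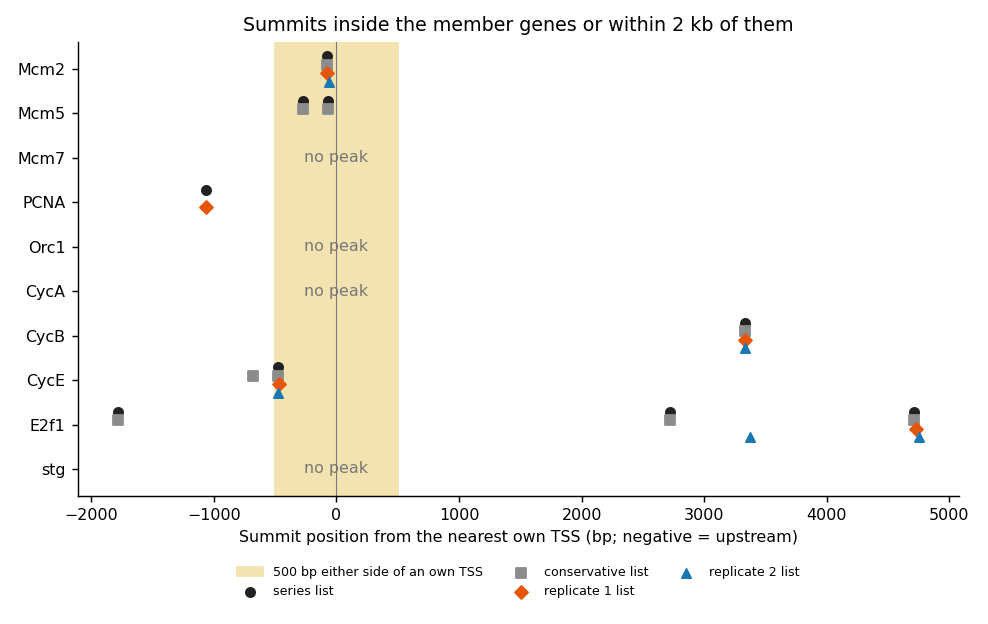
Summit position of each thresholded peak inside a member gene or within 2 kb, as distance in bp from the nearest own TSS, with 1 row per gene and 1 symbol per list. Summits of Mcm2, Mcm5 and CycE fall in the shaded band of 500 bp either side of a TSS, those of PCNA, CycB and E2f1 fall outside it, and 4 genes have none.

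The cyclins differed from one another. CycE (chr2L:15727581-15748150, - strand) has 3 annotated TSSs, and its peak (chr2L:15746919-15747248) had a summit 474 bp upstream of the middle one, inside an intron of CycE. The signal was 137 in the series (rank 1120 of 3848), 65.9 in replicate 1 (rank 1538 of 2987) and 64.8 in replicate 2 (rank 851 of 2114). It was in all 4 thresholded lists, with summits 467 and 477 bp upstream in replicates 1 and 2. The summit lay just inside the 500 bp limit, and with a limit of 250 bp CycE no longer counted. An exon of the non-coding RNA gene CR44974 reaches to within 100 bp of the summit. The TSSs used throughout are those of protein-coding genes only. The conservative list had a further entry 679 bp upstream with a signal of 24.2 and a q value of 0.985.

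CycB (chr2R:22803521-22806948, - strand) had the highest ranked peak of the 10 genes. The peak spans chr2R:22802864-22803071, and its summit lay 551 bp beyond the 3′ end of the gene and 3333 bp from the nearest CycB TSS, in intergenic DNA with no other protein-coding TSS within 500 bp. The signal was 396 in the series (rank 179 of 3848), 226 in replicate 1 (rank 197 of 2987) and 167 in replicate 2 (rank 159 of 2114). All 4 thresholded lists held it, with summits within 2 bp of one another. At the CycB promoters the strongest ranked entry had a signal of 22.9 in the series, 13.5 in replicate 1 and 19.4 in replicate 2, none of which passed the threshold. The gene was thus counted within 2 kb but not at its TSS, whichever list was used.

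CycA (chr3L:11826719-11833578, - strand) had no thresholded peak. The strongest ranked entry at its TSS had a signal of 29.9 in the series and 24.1 in replicate 1, and replicate 2 had none. The nearest thresholded summit in the series was 10987 bp from the TSS, next to RpL10Ab, with a signal of 85.5.

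E2f1 (chr3R:21620304-21660871, - strand), the transcription factor gene of the set and the longest of the 10 at 40568 bp, had 3 series peaks and none at its 5 TSSs. The strongest (chr3R:21627817-21628146) lay in an intron, 4711 bp from the nearest own TSS, with a signal of 112 in the series (rank 1447 of 3848), 58.8 in replicate 1 and 51.2 in replicate 2. It was in all 4 thresholded lists. The other summits had signals of 54.0, in an intron of the neighbour Archease 1780 bp upstream of E2f1, and 52.3, in another stretch of E2f1 intron 2721 bp from a TSS. Their q values were 0.149 and 0.180, and neither replicate listed them, although both ranked lists had entries there (30.9 and 26.5 at Archease and 31.6 and 23.7 in the intron, for replicates 1 and 2). Replicate 2 alone listed a further intronic summit of 27.4, 3376 bp from a TSS. A ranked entry of 95.0 at the TSS of the neighbour InR, 927 bp beyond the 3′ end of E2f1, had an IDR of 0.000213 and was still not in the thresholded list, one of 147 series entries of that kind.

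stg (chr3R:29251826-29255800, - strand), the Cdc25 gene, had no thresholded peak within 2 kb. Its strongest ranked entry was 21 bp from a TSS, in the 5′ UTR, with a signal of 25.8 in the series and an IDR of 0.588. The nearest thresholded summit in the series was 24602 bp away in coding sequence of Usp1, with a signal of 66.6.

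Of the 9 series peaks at these genes, 4 were in both replicates' thresholded lists, 4 were in neither and 8 were in the conservative list. Those in both replicates were the Mcm2, CycB and CycE peaks and the strongest E2f1 peak, and the same 4 were the ones with a signal at or above the median of the series list. Their log2 ratios of replicate 1 to replicate 2 were 0.48 at Mcm2, 0.44 at CycB, 0.02 at CycE and 0.20 at E2f1, against a median of 0.60 over all series peaks (10th to 90th percentile -0.08 to 1.26). At 5 of the 9 summits another gene's TSS lay within 500 bp. The 7 members without a thresholded summit at a TSS all had ranked entries there in the series, with signals of 10.4 to 42.2, IDRs of 0.273 to 0.903 and q values of 0.555 to 0.990. Such an entry is common, since 76.7% of all protein-coding genes had a ranked series entry within 500 bp of an own TSS, and it is not read as binding. In replicate 2, 3 of these members had no ranked entry there, and 61.5% of all genes had one.

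**Figure D2:**
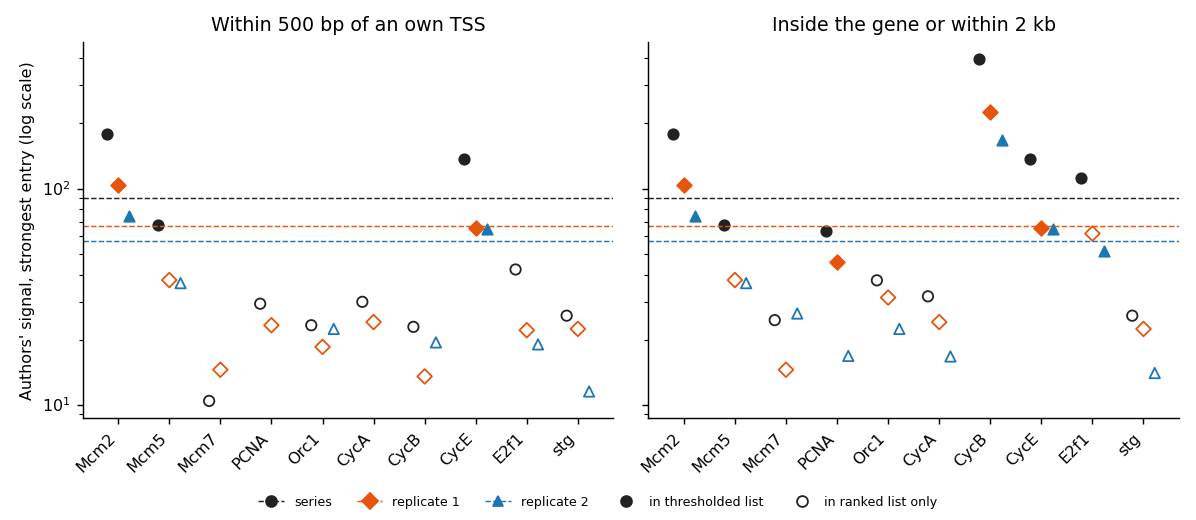
The strongest entry of the ranked lists for each gene on the authors' signal scale (log axis), near an own TSS (left) and in the gene or within 2 kb (right), for the series and each replicate. Filled symbols passed into a thresholded list, open ones did not, and dashed lines mark the median of each thresholded list (90.0 in the series). In the series, Mcm2 and CycE stand above that line at their TSSs and CycB and E2f1 do so only in the wider window. The open E2f1 symbol of replicate 1 on the right is the entry of 61.9 beside InR, above the listed E2f1 peak of 58.8.

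Set against the genome, 3 of the 10 members (30.0%) had a series summit at an own TSS, and 18.7% of all protein-coding genes had one. The conservative list also gave 3 of 10, beside 17.7% of all genes. Replicate 1 gave 2 of 10 beside 15.5%, and replicate 2 gave 2 of 10 beside 12.1%, in both cases Mcm2 and CycE. In the gene or within 2 kb, the series list gave 6 of 10 members beside 33.3% of all genes, the conservative list 5 of 10 beside 31.4%, replicate 1 5 of 10 beside 28.1% and replicate 2 4 of 10 beside 22.2%. With 10 genes, 1 gene moves the share by 10 percentage points, so no difference from the background can be read from these counts. The wider window also grows with gene length, which ranged among the members between 1130 bp for PCNA and 40568 bp for E2f1. A count at an own TSS grows with the number of TSSs, which was not matched. No test was made, because the members were chosen with earlier results known.

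A wider list of 87 genes with the same functions includes the 10 members. Of its 47 replication genes, 14 (29.8%) had a series summit at an own TSS, with a median signal of 92.9, and of its 40 cell cycle genes 14 (35.0%) did, with a median of 105. Over all 2606 protein-coding genes with such a summit the median was 108. All genes stood at 18.7% in the series. Replicate 1 gave 10 replication genes (21.3%) and 11 cell cycle genes (27.5%), beside 15.5% of all genes. Replicate 2 gave 7 (14.9%) and 10 (25.0%), beside 12.1%, so its replication share was close to that of all genes. Shares of both lists were above that of all genes in each thresholded list, by 2.8 to 17.3 percentage points. The 4 thresholded lists draw on the same 2 replicates and are not independent of one another. In the gene or within 2 kb, 21 of the 47 (44.7%) and 19 of the 40 (47.5%) had a series summit, beside 33.3% of all genes. That window grows with gene length, and gene lengths were not matched.

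**Figure D3:**
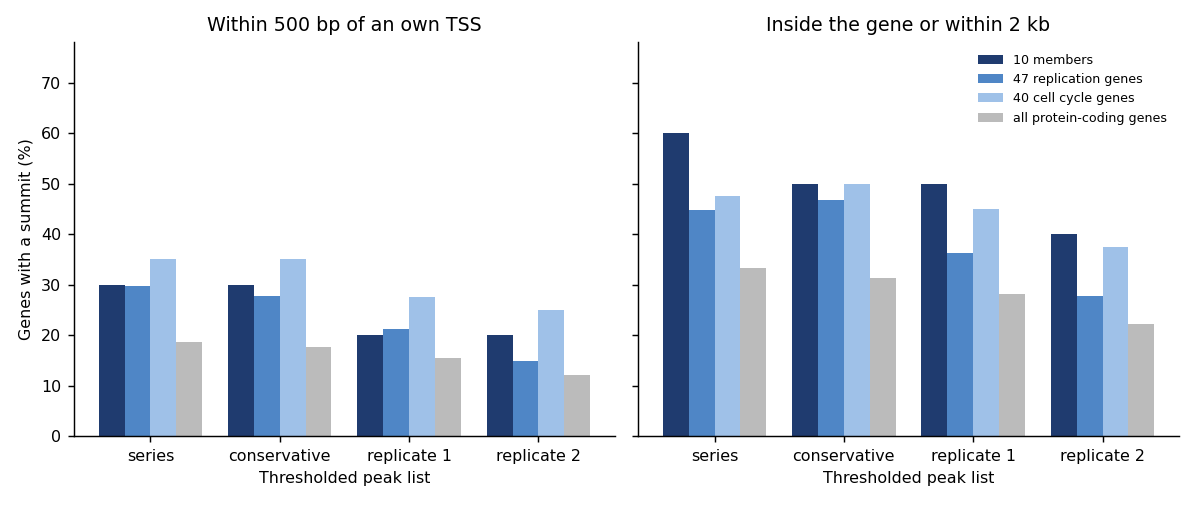
Share of genes (%) with a summit within 500 bp of an own TSS (left) and in the gene or within 2 kb (right) in each thresholded list, for the 10 members, the 47 replication genes, the 40 cell cycle genes and all protein-coding genes. In the left panel the members stand at 30.0% in the series and conservative lists and 20.0% in both replicates, beside 18.7%, 17.7%, 15.5% and 12.1% of all genes.

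The counts below for each functional list are of summits at an own TSS in the series, for which the share of all genes was 18.7%. With 4 to 12 genes a list, they describe the genes and rank no list. Among origin recognition and licensing genes 1 of 9 (11.1%) had a summit, and 3 of 9 (33.3%, the share of all genes) did in the wider window of 2 kb. The gene with one at its TSS was dup, which encodes the licensing factor Cdt1, with a signal of 58.2, and Cdc6, the loader of the helicase, and Orc2, another origin subunit, had no summit at a TSS. Of the 6 helicase subunits 3 had one, the third being dpa, which encodes the Mcm4 subunit, with 134 in the series and a place in all 4 lists, whereas Mcm3 and Mcm6 had none. Among genes that activate the helicase, 3 of 8 had one, with 115 at chif, which encodes the Dbf4-like partner of the Cdc7 kinase, 83.3 at Cdc7 itself and 66.2 at Psf1 of the GINS complex. Cdc45, a part of the active helicase, and Mcm10 had none. At dup and Psf1 neither replicate's list had a summit at the TSS, and at chif and Cdc7 only that of replicate 1 did.

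Polymerase genes had 3 of 9 (33.3%). PolD2, the second subunit of the polymerase delta complex, had the highest promoter signal of the replication genes, 354 (rank 216), and was in all 4 lists. PolA1, the catalytic subunit of polymerase alpha, had 102, in all 4 lists. Prim1, the primase, had 71.0, in the series list only, while PolA2 and PolD1 had none at a TSS. Of 11 clamp, loader and lagging strand genes, RPA1 (179, the Mcm2 peak) and PCNA2, a paralog of PCNA (80.6), had one. That of PCNA2 was not in the list of replicate 2. DNAlig1, the ligase, and Fen1, the flap nuclease, had none. Of 4 nucleotide supply genes, RnrS, the small subunit of ribonucleotide reductase, had 299 and dUTPase 82.7, each in all 4 lists, and RnrL, the large subunit, and Ts, thymidylate synthase, had none.

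On the cell cycle side, 2 of 10 cyclin and kinase genes had a summit at a TSS, CycE and Cdk1, the mitotic kinase, with 97.4. Cdk2 and Cdk4 had none, but Cdk4 had a summit of 110 at 570 bp from its TSS, just outside the limit. Of 9 genes of the E2F, Rb and Myb group, Dp, the partner of E2f1, had the highest promoter signal of the cell cycle genes, 380 (rank 188), and was in all 4 lists. E2f2, the repressive E2F, had 66.7 and mip130, a subunit of the complex of E2F, Rb and Myb proteins, had 70.7. The list of replicate 1 had neither, and that of replicate 2 had E2f2 only. Myb and Rbf, the fly Rb gene, had none. Of 9 regulators of the kinases, fzr, an activator of the anaphase-promoting complex, had 84.8 and rux, an inhibitor of mitotic cyclins, 82.6. The list of replicate 2 held fzr but not rux. Myt1 and Rca1 had none. Mitotic kinase and checkpoint genes had 7 of 12 (58.3%), with 364 at mei-41 (the ATR kinase), 186 at tefu (the ATM kinase), 174 at aurA (Aurora A) and 151 at SAK (the Plk4 kinase of centriole duplication), each in all 4 lists. The summits at mei-41, tefu, aurA and SAK each also lay within 500 bp of another gene's TSS. Genes of the spindle checkpoint differed, since Bub1 and Mps1 had none in the series list and Bub1 had one in the conservative list, while BubR1, named here after its values were seen, had 113 and was in all 4 lists.

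**Figure D4:**
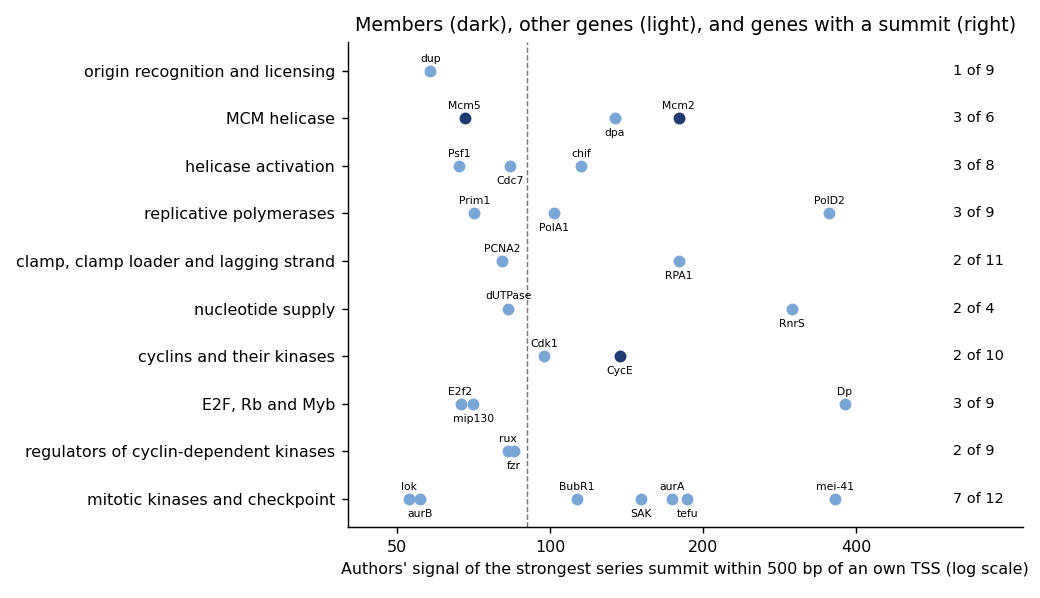
Authors' signal (log axis) of the strongest series summit within 500 bp of an own TSS for every gene of the 10 functional lists that has one, members in dark and other genes in light colour, with the number of covered genes at the right. RPA1 and Mcm2 share 1 peak at 179, the dashed line is the median of all series peaks (90.0), and Dp, mei-41 and PolD2 lie farthest to the right.

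Some of these genes start near a neighbour on the opposite strand. An opposite-strand TSS lay up to 1 kb upstream of 4 of the 10 members (Mcm2 at 519 bp, Mcm5 at 298 bp, stg at 685 bp and CycB at 912 bp). Over all 13968 protein-coding genes 4913 had such a neighbour, and no difference from that can be read from 10 genes. Of these 4 members, 2 (Mcm2 and Mcm5) had a series summit at an own TSS, and of the other 6 members 1 did. Over all protein-coding genes the share was 34.0% of the 4913 genes with such a neighbour and 10.3% of the 9055 without. In the wider list 12 of 31 replication genes with such a neighbour and 2 of 16 without had a summit, as did 11 of 21 and 3 of 19 cell cycle genes. Such a neighbour was thus found at 31 of 47 and 21 of 40 listed genes, against 4913 of all 13968, and its part in the lists' shares was not tested. The strongest summit at the TSS lay within 500 bp of another gene's TSS as well for 12 of 14 covered replication genes (85.7%), 10 of 14 covered cell cycle genes (71.4%) and 60.7% of all 2606 covered genes.

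Motif matches were read on both strands, from 250 bp before to 50 bp after each TSS and within 100 bp of each summit. The DRE core (ATCGAT) lies inside the DRE (TATCGATA), which also holds CGATA on both strands, so these matches overlap. A DRE was found in a promoter of 2 of the 10 members, PCNA (27 bp upstream of its outer TSS) and CycA (11 bp upstream), and in 1420 of the 13968 genes (10.2%). Neither had a thresholded summit at an own TSS. Over all genes, 30.1% of those with a DRE and 17.4% of the 12548 without had one. Per TSS, the DRE was in 7.98% of all 19276 promoters, and per summit in 4.37% of the 3822 series summits on the arms and 8.22% of the 1958 within 500 bp of a TSS.

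None of the 4 member summits at an own TSS held a DRE within 100 bp. The weaker Mcm5 summit held a DRE core starting 25 bp from it. That match was at 12.2% of series summits, 19.1% of those within 500 bp of a TSS and 20.9% of promoters. The stronger Mcm5 summit lay on the last base of a CGATA site that starts 4 bp before it, and a further CGATA in the opposite orientation starts 7 bp after it, as the capitals in its sequence show. CGATA sites also lay within 100 bp of the Mcm2, CycE and CycB summits, which with both Mcm5 summits makes 5 of the 9 member summits. Such a site was at 30.6% of series summits, 40.8% of those within 500 bp of a TSS and 45.7% of promoters. In the promoters of CycB the outer TSS had 3 DRE cores and a Motif 1 match (GGTCACACT, in 5.22% of promoters), yet only ranked entries. Motif 1 was not found within 100 bp of any member summit, and was found at 1.41% of series summits.

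E2F sites were searched as TTTCCCGC, TTTGGCGC, TTTCGCGC and TTTGCCGC. The spelling TTTGGCGC contains TTGGCGC, which was also searched and is in 5.19% of promoters. At least 1 of these was in a promoter of 6 of the 10 members (CycB, CycE, Mcm2, Mcm5, Orc1 and stg), beside 1216 of all genes (8.71%), and in 6.76% of promoters counted per TSS. A count per gene grows with the number of TSSs searched. The 10 members have 20 TSSs, beside 19276 promoters for all 13968 genes. The matches lay 36 bp downstream of the Mcm2 TSS and 32 bp downstream of that of Mcm5, and at CycE 114 and 91 bp upstream of the middle TSS. All 3 members with a summit at a TSS were among the 6, and over all genes 23.9% of those with a match and 18.2% of those without had such a summit. None of the 9 member summits had an E2F match within 100 bp, beside 2.69% of series summits. That count depends on the window, because matches start 102 bp from the weaker Mcm5 summit and 113 bp from the Mcm2 summit. The weaker Mcm5 summit, with a q value of 0.939, was in neither replicate's thresholded list. Within 150 bp, a window chosen after seeing the data, 2 of the 9 summits had a match, beside 5.15% of series summits. At CycE the printed promoter has the E2F pair and a GC content of 54.8%, while the DNA around the summit has 21.9% and no such match. These matches are letters in the sequence, and a window without a match says only that these letters are not in it.

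The homeodomain core TAATTA was in a promoter of 3 of the 10 members, Mcm7, CycB and E2f1, beside 24.3% of all genes. Counted per TSS, it was in 18.9% of promoters. Mcm7 had it at 126 and 77 bp upstream of its TSS, the pair in capitals in its sequence, and had no peak. None of the 9 member summits had TAATTA within 100 bp, beside 17.7% of all series summits, and the related TAATTG was found at the CycB summit alone, 24 bp from it (19.0% of series summits and 24.5% of promoters). The E-box CAGCTG was in promoters of E2f1 and stg (22.3% of all genes, 17.9% of promoters). GAGAGAG, the repeat bound by GAGA factor, was in promoters of CycE and E2f1 (9.08% of all genes, 7.64% of promoters). Neither motif was within 100 bp of a member summit. GTCACAC, which lies inside Motif 1, matched in the same CycB promoter and in 8.54% of all.

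**Figure D5:**
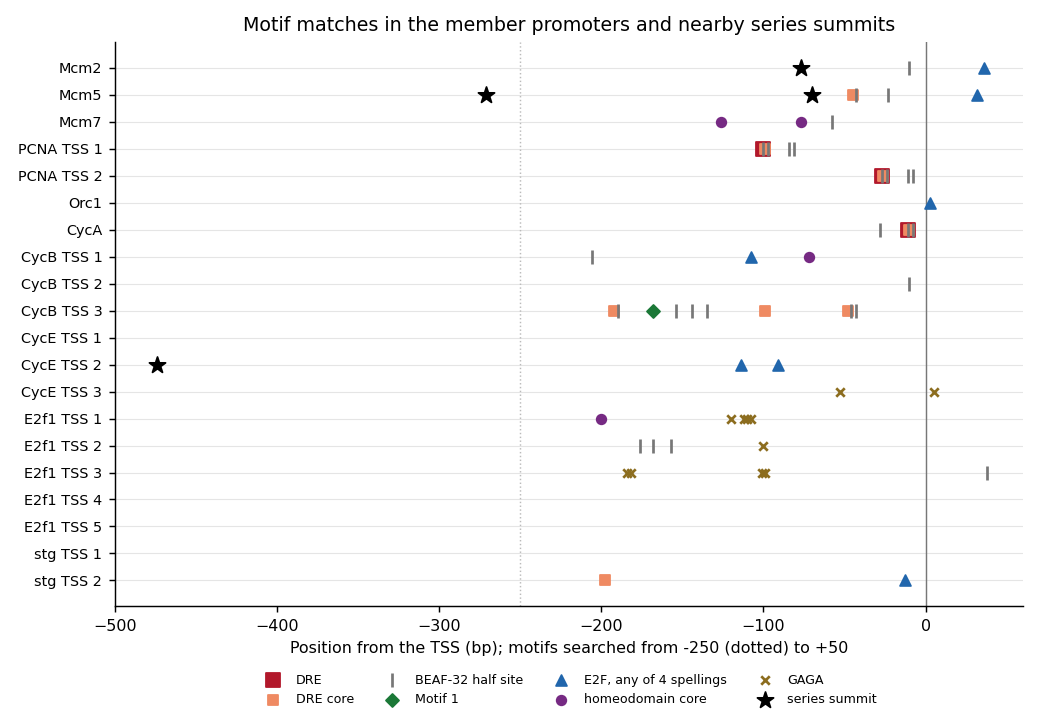
Motif matches in the promoters of the 10 members by distance in bp from each of the 20 TSSs, searched between -250 and +50, with series summits up to 500 bp upstream as stars. E-boxes and TAATTG were also searched and are not drawn. The DRE matches of PCNA and CycA and the homeodomain cores of Mcm7, CycB and E2f1 have no star in their rows, and the CycE star lies upstream of its E2F pair.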

How the data were processed

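ChIP-seq was measured in 2 biological replicates of 1 group. The authors' 8 deposited peak lists (thresholded and ranked, per replicate and for the series) give, per peak, a signal value, a −log10 q value and a score. The sources used here give neither the signal's scaling nor the aligner, the peak caller or the filters. The assembly is dm6, per the labels. The deposited score, a scaled IDR, was not used to rank peaks, and the global IDR came from the score columns of the ranked lists, to which each thresholded list was linked by exact match of its entries. The ranked lists' columns that repeat each replicate's signal were not used.

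Summits were set against Ensembl release 115 (BDGP6.54) and RefSeq release 6 sequence with Python 3.11.15, numpy 2.4.6, pandas 2.3.3 and matplotlib 3.10.9. A gene was counted with a summit within 500 bp of an own TSS, or inside it or within 2 kb, and a replicate's entry matched a series summit within 150 bp. The members and lists were chosen with earlier results of these data known, so shares stand beside those of all genes and no test was made. All members were named, and from each wider list up to 4 further genes with the strongest summit at a TSS and up to 2 without, by symbol. Counting was checked on simulated data. Depth per sample is unknown. Alternatives were the conservative list, each replicate alone, an IDR of at most 0.0001, other windows, single TSSs, peak intervals, nearest genes, and other motif windows.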

Additional observations from a re-analysis of the deposited data

How the results depend on the processing

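Which genes were counted rests on 2 replicates, with unknown depth and no control library, so a gene without a listed peak may still be bound below the threshold. The members' count at an own TSS was 3 in the series and 2 or 3 under every alternative tried (conservative list, each replicate alone, IDR of at most 0.0001, windows of 250 bp and 1 kb, most upstream TSS, peak intervals, nearest TSS). The share of all genes under those alternatives ran from 9.0% (IDR of at most 0.0001) to 21.6% (window of 1 kb). The genes counted changed, and Mcm2 alone was counted under each. CycE dropped out with a window of 250 bp and with the most upstream TSS. Mcm5 dropped out with each replicate alone and at the stricter IDR. With a window of 250 bp or the nearest TSS, Mcm5 counted only through its weaker entry (signal 15.6, q value 0.939). The members' count within 2 kb was 6, between 4 and 8 under its alternatives. The 8 came with a window of 5 kb and has no share of all genes beside it. With an IDR of at most 0.0001 the share of all genes was 9.0%, and both wider lists had 6 genes. With a window of 250 bp the wider list had 9 of 40 cell cycle genes and 11 of 47 replication genes, beside 15.1% of all genes. When a summit counted only for the gene with the nearest TSS, the counts were 6 of 40 and 11 of 47, beside 13.5%. The cell cycle count was then close to the share of all genes. Without replicate 1 or 2 the replication genes ranged from 7 to 10, the cell cycle genes from 10 to 11 and the share of all genes from 12.1% to 15.5%. Replicate 2's list, the one left without replicate 1, gave the lower value each time. With the DRE core in place of the DRE, 1 of the 4 member summits at a TSS held a match. E2F matches were at 0 of 9 member summits within 100 bp, 2 within 150 bp and 3 within 250 bp (11.3% of series summits), the wider windows being chosen after seeing the data. Signals of single members in a replicate's list were lower than in the series, as the sum described above implies, so those were not read as changes. No paired analysis was possible because there is 1 group and no comparison between groups.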
